A study of Mus musculus with 27 samples.

Results

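The genes described here are 40 mouse genes of DNA damage signalling and repair, given by a list of names, among the 22415 of 50559 genes in the deposited count table that had at least 10 counts summed over all libraries. All 40 passed that minimum. Their transcripts were counted by bulk RNA sequencing of mouse thyroid gland organoids (mTGOs), three-dimensional cultures grown in a basement membrane matrix from the thyroid glands of female C57BL/6 mice aged 8 to 12 weeks. The organoids were grown for 5 days and then left unirradiated or exposed to 2, 4 or 7 Gy of photons. RNA was collected from unirradiated organoids at day 5 and from organoids of all 4 doses at day 7 and at day 11, which gave 9 groups of 3 libraries and 27 libraries in all. Every group, controls included, was kept in medium with EGF, FGF2, the ROCK inhibitor Y27632 and B27. Each group held organoids from 3 different mice according to the labels, and the count columns carry 3 culture identifiers (mTG11, mTG12 and mTG14) that recur in every group. Values in single libraries are given below in that order of cultures.

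A double-strand break is detected by the Mre11, Rad50 and Nbn complex, which activates the kinase Atm, while Atr responds to stalled replication forks. These kinases mark the chromatin around a break through the histone variant H2ax and slow the cell cycle through Chek1 and Chek2. Homologous recombination then repairs the break from the sister chromatid and is mostly limited to S and G2 phase, the Fanconi anaemia pathway removes crosslinks between strands and works with it, and non-homologous end joining ligates broken ends at any phase of the cell cycle. The 40 genes were therefore grouped into 12 sensors and checkpoint genes, 18 homologous recombination and Fanconi genes, 8 end-joining genes and 2 genes of single-strand break repair.

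The promoters of 4 genes that fell together between day 5 and day 11 without irradiation are shown, because genes of recombination and the checkpoint are often transcribed with the cell cycle through short E2F, CHR and CCAAT elements. The first pair were the recombination and Fanconi genes with the largest fall that had an entry, and the other pair were the genes that fell and held an E2F match. Each sequence runs from 250 bases before to 50 bases after the annotated start, is given 5′ to 3′ on the strand of the gene and was taken from RefSeq on build GRCm38.p6, with the matched letters in capitals.
Rad51ap1, chr6:126939538-126939837, minus strand: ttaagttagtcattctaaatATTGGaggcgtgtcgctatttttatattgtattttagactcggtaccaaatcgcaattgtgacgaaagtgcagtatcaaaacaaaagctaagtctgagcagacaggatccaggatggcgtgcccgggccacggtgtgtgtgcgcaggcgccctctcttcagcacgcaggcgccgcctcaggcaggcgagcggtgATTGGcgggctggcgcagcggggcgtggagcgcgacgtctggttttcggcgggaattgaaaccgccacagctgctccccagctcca
Fanca, chr8:123318527-123318826, minus strand: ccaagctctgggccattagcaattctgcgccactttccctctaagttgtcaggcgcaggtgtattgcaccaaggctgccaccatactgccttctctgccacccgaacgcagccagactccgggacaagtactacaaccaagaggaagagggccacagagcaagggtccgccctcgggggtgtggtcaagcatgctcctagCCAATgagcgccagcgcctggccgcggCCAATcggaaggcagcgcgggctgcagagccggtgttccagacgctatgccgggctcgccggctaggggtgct
Bard1, chr1:71102923-71103222, minus strand: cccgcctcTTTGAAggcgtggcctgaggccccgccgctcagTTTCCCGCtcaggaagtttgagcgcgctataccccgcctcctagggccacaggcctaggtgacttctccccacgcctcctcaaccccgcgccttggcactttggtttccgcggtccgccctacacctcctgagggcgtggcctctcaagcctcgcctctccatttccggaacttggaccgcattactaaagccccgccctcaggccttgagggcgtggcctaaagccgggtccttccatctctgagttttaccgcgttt
Chek2, chr5:110839733-110840032, plus strand: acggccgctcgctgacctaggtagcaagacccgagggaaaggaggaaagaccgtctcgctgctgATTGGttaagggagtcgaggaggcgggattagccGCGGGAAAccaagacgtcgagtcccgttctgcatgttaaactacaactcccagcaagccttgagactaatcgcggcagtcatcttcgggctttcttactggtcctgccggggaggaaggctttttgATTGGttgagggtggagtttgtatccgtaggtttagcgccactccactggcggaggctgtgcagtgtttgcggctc
The E2F letters searched on both strands were TTTCCCGC, TTTGGCGC, TTTCGCGC and TTTGCCGC, the CHR letters were TTTGAA and TTCGAA, and the CCAAT letters were CCAAT. Bard1 held TTTCCCGC and TTTGAA, Chek2 held GCGGGAAA, the reverse complement of the first E2F form, with 2 CCAAT boxes read as ATTGG, and Rad51ap1 and Fanca each held 2 CCAAT boxes. A promoter was found for 31 of the 40 genes. An E2F match stood in 6 of these 31 (19.4%; Chek2, Mdc1, Brca2, Bard1, Rad51c and Xrcc6) and in 2.6% of the 27025 promoters of all genes. Among the genes that fell by day 11 it stood in 2 of 14 (14.3%), and among those that did not, in 4 of 17 (23.5%). CCAAT boxes stood in 54.8% of the 31 promoters against 41.1% of all, in 9 of the 14 that fell (64.3%) and in 8 of the 17 that did not (47.1%). CHR letters stood in 12.9% against 21.7%, in 2 of the 14 (14.3%) and in 2 of the 17 (11.8%). A match of letters describes the sequence and was not tested as a binding site.

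Library totals ranged from 2528866 to 5723150 counts, and a floor of 3 counts corresponded to 0.524 to 1.19 CPM (counts scaled to the library total). Of the thyroid markers, Slc5a5, Tshr and Pax8 had group means under 1 CPM in all 9 groups and Tg between 1.05 and 8.49 CPM, while the transcription factors Nkx2-1 and Foxe1 were at group means of 8.32 to 18.7 CPM and 25.7 to 38.1 CPM. Thus the iodide transporter Slc5a5 and the TSH receptor Tshr, which define hormone-producing thyrocytes, were at or near 0. The summed basal and squamous keratinocyte markers were far higher, at 8023 to 28176 CPM. Without TMM scaling (edgeR's correction for differences in RNA composition) the median log2 fold change of all genes moved by 0.143 in both comparisons with day 5, and the number of genes higher and lower went from 2211 and 1775 to 1531 and 2739 for day 7 and from 3921 and 3700 to 3049 and 4589 for day 11. For 7 Gy at day 11 it went from 210 and 92 to 250 and 64.

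The 40 genes were expressed at low to moderate levels. Their counts summed over the 27 libraries ran from 147 for Palb2, which links Brca1 to Brca2, to 9309.5 for Rad50, and of the 1080 values per gene and library 33 rested on at most 3 counts and 0 were at 0 counts. The median sum was 510.6 counts for the recombination and Fanconi genes, 832.9 for the end-joining genes, 1978.2 for the sensors and checkpoint genes and 2649 for the 2 single-strand break genes. The median standard error of the log2 fold change between day 11 and day 5 was accordingly 0.319 for the recombination and Fanconi genes and 0.312 for the end-joining genes, against 0.174 for the sensors and checkpoint genes. The reads come from 3′ ends, so a count is not divided by transcript length. Of the 40 genes, 30 lie opposite another annotated gene on GRCm39 and 14 have another gene over their 3′ end, among them Rad51ap1, Rad54l, Brca2, Fanca, Fanci, Fancd2 and Trp53bp1, and whether the counting used strand is not given in the sources used here. Counts of these genes are uncertain to that extent, as are the fractional counts of 28 genes.

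**Figure D1:**
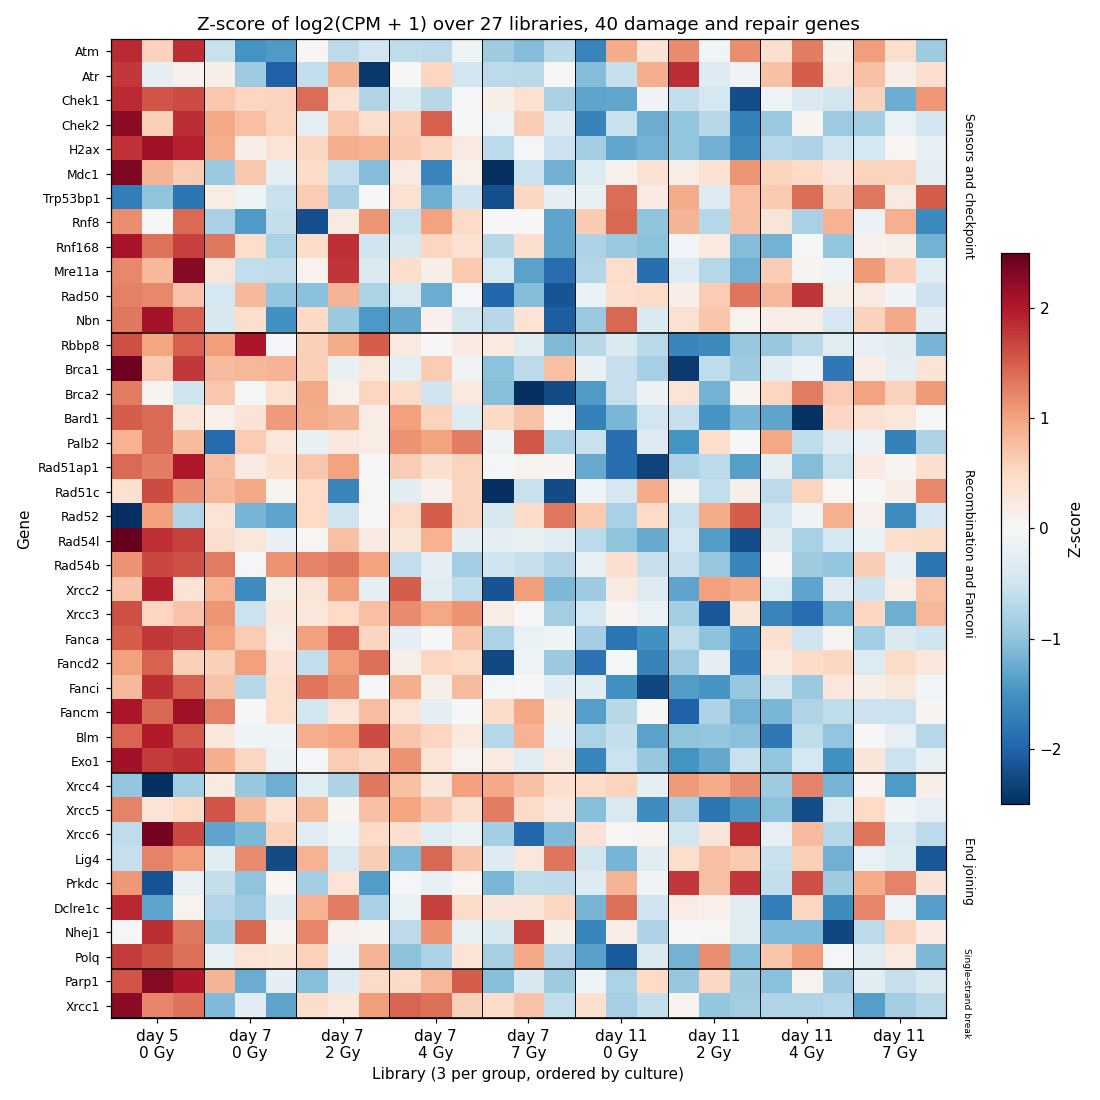
Z-score of log2(CPM + 1), without TMM factors, of each of the 40 genes (rows, by role) in each of the 27 libraries (columns, by day and dose), computed over the 27 libraries of a gene. The 3 libraries of day 5 are mostly above the mean, and the unirradiated libraries of day 11 are mostly below it in the recombination and Fanconi block.

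Without irradiation, recombination and Fanconi genes fell with culture time, while most sensors and end-joining genes did not pass the test. Between day 5 and day 11, 19 of the 40 genes fell and 2 rose, where 20.1% of all 18442 genes tested were called lower and 21.3% higher. Of the 18 recombination and Fanconi genes, 12 fell and 0 rose, with a median log2 fold change of -1.34. Of the 12 sensors and checkpoint genes 4 fell and 1 rose (median -0.34), of the 8 end-joining genes 2 fell and 1 rose (median -0.18), and of the 2 single-strand break genes Xrcc1 fell. The median over all genes was 0.06. The difference between roles was described by these counts and was not tested.

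Rad54l, a DNA translocase that acts during invasion of the sister chromatid, lies on chromosome 4 from 115948561 to 115980894. It was measured at 24.5, 16.8 and 15.7 CPM at day 5, 7.56, 6.92 and 5.15 CPM at day 7 and 3.83, 2.99 and 2.51 CPM at day 11, so that no 2 days overlapped. Its log2 fold change was -1.39 (SE 0.23, adjusted p = 0.00152) from day 5 to day 7, -1.07 (SE 0.29, adjusted p = 0.0220) from day 7 to day 11 and -2.45 (SE 0.26, adjusted p = 1.40e-05) from day 5 to day 11, all by the quasi-likelihood test of edgeR adjusted over all genes by Benjamini-Hochberg, as are the adjusted p-values below unless another test is named. Exo1, the nuclease that trims a broken end into single strands, lies on chromosome 1 from 175708143 to 175741055. It was at 16.2, 12.9 and 13.7 CPM at day 5, 7.56, 5.84 and 3.60 CPM at day 7 and 0.952, 2.69 and 1.92 CPM at day 11, again without overlap between days. From day 5 to day 11 it fell by 2.80 on the log2 scale (SE 0.34, adjusted p = 3.62e-05), and both shorter intervals passed the test.

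Rad51ap1, an accessory factor of homologous recombination, had the largest fall of the 40 genes. It lies on chromosome 6 from 126899446 to 126916587, and its promoter is the first of those shown above. It was at 13.1, 12.2 and 18.0 CPM at day 5, 9.12, 6.63 and 7.46 CPM at day 7 and 2.62, 1.61 and 1.10 CPM at day 11. The values of day 11 rested on 11, 6 and 4 counts. The days did not overlap, and the log2 fold change was -2.84 (SE 0.30, adjusted p = 1.12e-05) between the first day and the last and -2.08 (SE 0.31, adjusted p = 0.000556) over the second interval. Over the first interval it was -0.76 (SE 0.23, adjusted p = 0.0364), a call lost with DESeq2 (adjusted p = 0.111) and without the day 5 library of mTG11 or mTG14 or the day 7 library of mTG12 or mTG14 (log2 fold changes from -0.81 to -0.56).

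The other recombination and Fanconi genes that fell from day 5 to day 11 differed widely in size. Fanca, a subunit of the Fanconi core complex, went from a mean of 8.97 ± 0.630 to 1.27 ± 0.569 CPM (SD, n = 3 libraries, as for all means below), a log2 fold change of -2.62 ± 0.32 (SE). Fanci (-2.19 ± 0.52) and Fancd2 (-1.34 ± 0.44) form the pair that the core complex ubiquitinates, and Fancm (-1.63 ± 0.30) is its DNA translocase. At day 11 these rested on few reads, with 15 counts for Fanca, 13 for Fanci and 14 for Fancd2 summed over the 3 libraries. Blm, the Bloom helicase, fell by 2.00 on the log2 scale, and most of its fall came by day 7 (-1.19 (SE 0.22, adjusted p = 0.00294)). Brca1 (-1.22 ± 0.28) and its partner Bard1 (-1.54 ± 0.37), which form a ubiquitin ligase that acts in recombination, fell together with Rad54b (-1.04 ± 0.34), a relative of Rad54l, and, by a small amount, Rbbp8 (-0.36 ± 0.13), the cofactor that starts resection. The 6 that did not pass the test were Brca2, Palb2, Rad51c, Rad52, Xrcc2 and Xrcc3, with log2 fold changes from -1.33 to 0.36. Brca2, a breast cancer susceptibility gene needed for homologous recombination, was at 15.9, 10.6 and 8.84 CPM at day 5 and 6.44, 8.58 and 9.90 CPM at day 11, so the days overlapped. DESeq2 called 9 of the 12 falls, all but those of Rbbp8, Rad54b and Fancd2.

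Among the sensors and checkpoint genes, those that fell were H2ax, Chek1, Chek2 and Rnf168. H2ax, on chromosome 9 from 44245991 to 44247374, was at 53.4, 59.4 and 56.1 CPM at day 5, 38.9, 29.6 and 31.3 CPM at day 7 and 20.4, 17.4 and 18.0 CPM at day 11. The days did not overlap, and the log2 fold change from the first to the last was -1.44 (SE 0.12, adjusted p = 2.02e-06). The replication checkpoint kinase Chek1 went from 10.8 ± 0.772 to 3.16 ± 1.31 CPM (-1.64 (SE 0.27, adjusted p = 0.000475)) and the kinase Chek2, which acts after Atm, from 20.1 ± 5.11 to 8.19 ± 1.59 CPM (-1.15 (SE 0.22, adjusted p = 0.00112)). Rnf168, a ubiquitin ligase that recruits repair factors to broken chromatin, fell by 0.39 on the log2 scale (adjusted p = 0.0144 with edgeR and 0.0562 with DESeq2). Trp53bp1 moved the other way. This chromatin reader, which protects broken ends from resection and favours end joining, was at 11.0, 13.3 and 10.8 CPM at day 5, 18.0, 16.7 and 14.9 CPM at day 7 and 16.4, 24.4 and 18.1 CPM at day 11, and it rose from day 5 to day 11 (0.89 (SE 0.18, adjusted p = 0.00168)) without overlap between these days.

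The 3 genes of the break-sensing complex did not pass the test in the fit of all unirradiated libraries. From day 5 to day 11 the log2 fold changes were -0.40 ± 0.16 for Mre11a, -0.00 ± 0.10 for Rad50 and -0.13 ± 0.14 for Nbn, and those of Atr, Mdc1 and Rnf8 lay between -0.29 and 0.03. All Mre11a values of day 5 lay above those of day 11. Mre11a was called lower without the day 11 library of mTG12 (-0.54, adjusted p = 0.0268, edgeR). It was also called lower without the day 5 library of mTG12 (-0.48, adjusted p = 0.0494, edgeR). Atm was at 25.3, 17.1 and 25.1 CPM at day 5, 12.1, 9.01 and 9.26 CPM at day 7 and 8.57, 19.0 and 15.9 CPM at day 11. It fell from day 5 to day 7 (-1.02 (SE 0.27, adjusted p = 0.0182)), a call lost without the day 5 library of mTG11 or mTG14 or the day 7 library of mTG12 or mTG14 (-0.99 to -0.92), and its values of day 5 and day 11 overlapped.

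Of the end-joining genes, Polq, the polymerase of the alternative, microhomology-based route, stood apart with a log2 fold change of -2.64 (SE 0.60, adjusted p = 0.00397), from 3.79 ± 0.358 CPM at day 5 to 0.540 ± 0.559 CPM at day 11, where 6.14 counts were summed over the 3 libraries. The factors of the classical route moved in both directions. Xrcc5, which encodes the Ku80 subunit of the end-binding Ku heterodimer, went from 48.9 ± 5.74 to 32.8 ± 4.64 CPM (-0.43 (SE 0.14, adjusted p = 0.0225)), while Xrcc6, its Ku70 partner, had -0.19 ± 0.23 and did not pass. Xrcc4, the scaffold of the end ligase, rose from 4.88 ± 1.27 to 7.93 ± 0.922 CPM (0.82 (SE 0.25, adjusted p = 0.0215)), a call lost with DESeq2 (adjusted p = 0.113). The ligase Lig4, the kinase Prkdc, the nuclease Dclre1c and the scaffold Nhej1 had log2 fold changes of -0.16, 0.30, -0.03 and -1.11, none past the threshold. With the culture as a replicate block, Nhej1 (adjusted p = 0.0235, edgeR) and Parp1, the sensor of single-strand breaks (adjusted p = 0.0446, edgeR), were called lower as well.

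Xrcc1, the scaffold of single-strand break repair, lies on chromosome 7 from 24245714 to 24272865. It was at 34.5, 27.4 and 28.2 CPM at day 5, 16.2, 19.6 and 15.4 CPM at day 7 and 22.9, 17.2 and 18.1 CPM at day 11. Both later days lay below day 5, with log2 fold changes of -0.67 (SE 0.17, adjusted p = 0.0129) to day 7 and -0.48 (SE 0.16, adjusted p = 0.0322) to day 11. The second was lost with DESeq2 (adjusted p = 0.0867), and without the day 5 library of mTG11 the 2 values were -0.54 and -0.36 and neither passed. Of the 21 calls between day 5 and day 11, 14 were kept in all 6 fits that each omitted 1 library, and those of Rbbp8, Rad54b, Fancd2, Xrcc1, Xrcc4, Xrcc5 and Rnf168 were lost in 1 to 5 of them.

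The fall of the recombination and Fanconi genes was spread over both intervals. From day 5 to day 7, 7 of the 40 genes fell (Rad54l, Exo1, Blm, Atm, Rad51ap1, Xrcc1 and H2ax) and 1 rose (Trp53bp1, 0.65 (SE 0.18, adjusted p = 0.0233), lost with DESeq2 at an adjusted p of 0.101), with 9.62% of all genes called lower and 12% higher. The count of 8 dropped to 4 without the day 5 library of mTG11 and to 5 without the day 5 library of mTG14 or the day 7 library of mTG12. Without TMM factors 11 genes fell and 0 rose from day 5 to day 7, and 21 fell and 1 rose from day 5 to day 11. From day 7 to day 11, 10 fell and 0 rose, with 11.7% of all genes called lower and 9.57% higher. These were Rad51ap1, Fanca, Exo1, Bard1, Rad54l and Rbbp8 of the recombination and Fanconi genes, Chek1, Chek2 and H2ax of the checkpoint genes, and Xrcc5. From day 5 to day 7 the median log2 fold change was -0.50 for the recombination and Fanconi genes, -0.29 for the sensors and -0.22 for the end-joining genes. From day 7 to day 11 it was -0.82 for the recombination and Fanconi genes against 0.06 for both the sensors and the end-joining genes. The calls of Chek1, Chek2, Bard1, Rbbp8 and Rad54l were lost in 1 to 4 of the 6 fits without 1 library. With the replicate block 13 fell, Brca1, Fancd2 and Fancm in addition (adjusted p = 0.0379, 0.0405 and 0.0397, edgeR), and with DESeq2 6.

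**Figure D2:**
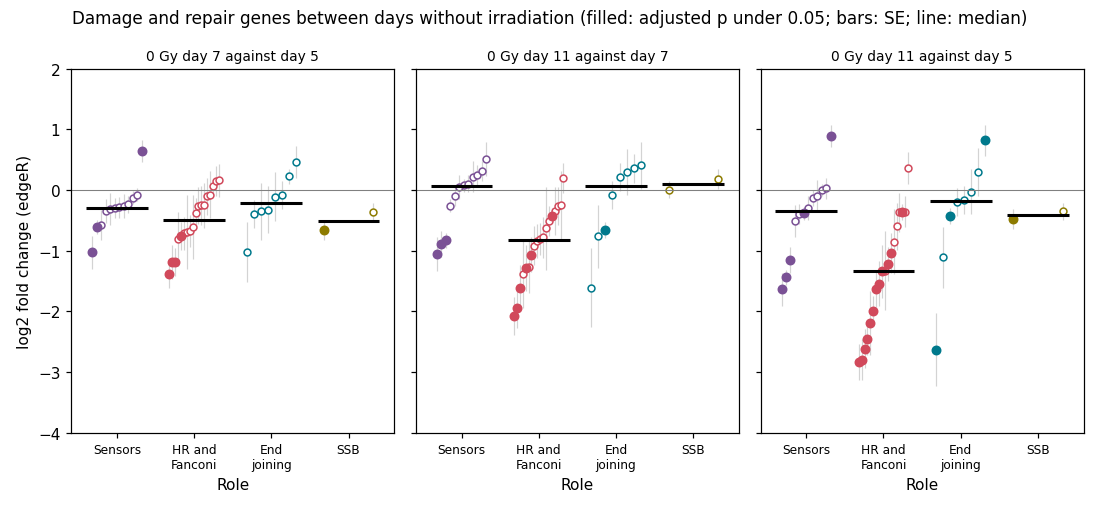
log2 fold change (y axis) of each of the 40 genes by role (x axis; HR, homologous recombination; SSB, single-strand break) for day 7 against day 5, day 11 against day 7 and day 11 against day 5 without irradiation; bars are standard errors, filled points passed an adjusted p of 0.05 and lines are medians. In the last panel 12 of the 18 recombination and Fanconi genes are filled and below 0, against 4 of 12 sensors and 2 of 8 end-joining genes.

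Other repair and cell-cycle genes were counted in the same comparison. Of 26 further recombination and Fanconi genes 15 fell and 1 rose from day 5 to day 11, the called ones of highest expression being Sfr1 (-0.59), Sem1 (-0.61) and Swi5 (-0.38). Of 23 further sensors and checkpoint genes 10 fell and 2 rose, with Smc1a (-0.53), Smc3 (-0.60) and Rif1 (-0.50) as examples. Of 13 further end-joining and single-strand break genes 1 fell, the replicative ligase Lig1 (-1.58), and 3 rose, among them Polb (0.50) and Aptx (0.78). All 21 genes of the G1/S transition and replication (median -1.87; Mcm3 -2.19) and all 20 genes of G2 and mitosis (median -2.85; Mki67 -3.19) fell. The lower counts of recombination genes at day 11 therefore moved together with those of the cell-cycle genes, and in bulk samples fewer cells in S and G2 phase and less RNA per cell cannot be told apart. Markers of cell types moved as well, and whether the numbers of cells or the RNA per cell changed was not tested. From day 5 to day 11, 6 of the 8 basal and squamous markers fell and 1 rose (summed 22389 to 28176 CPM at day 5, 8105 to 9967 CPM at day 11), 5 of the 8 fibroblast markers fell (32.1 to 116 against 5.95 to 38.3 CPM), and 2 of the 3 immune markers with enough counts rose (summed 5.53 to 16.7 against 48.3 to 90.4 CPM). The share of mitochondrial counts was 2.76 to 4.27% at day 5 and 6.90 to 8.81% at day 11. With the mean log2(CPM + 1) of the 8 fibroblast markers as a covariate, 16 of the 40 genes were called between day 5 and day 11. The falls of Bard1, Rbbp8, Rad54b and Fancd2 and the rise of Xrcc4 were lost with it. Between day 7 and day 11 the falls of Chek1, Rbbp8 and Bard1 were lost. The part of the other markers and of the mitochondrial share was not tested.

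The lower doses changed few of the 40 genes. At day 7, 2 Gy changed 0 genes by edgeR and 0 by DESeq2, with 2 at an unadjusted p under 0.05 (Blm, 0.94 ± 0.29, and Xrcc1, 0.45 ± 0.15) and 0.124% of all genes called. At day 11, 2 Gy changed 0 genes by either tool, with 3 at an unadjusted p under 0.05 and 0% of all genes called. Likewise 4 Gy changed 0 genes by either tool at day 11, with 5 at an unadjusted p under 0.05 and 0.00502% of all genes called. The 5 were Brca2, Rad51ap1, Fanca, Fancd2 and Polq, with log2 fold changes from 0.71 to 2.04, all above 0. Among all genes tested, 1629 of 19346 had an unadjusted p under 0.05 (edgeR) for 2 Gy at day 7. At day 11 it was 1159 of 19901 for 2 Gy and 1501 of 19901 for 4 Gy. The p-values rest on the spread between the 3 libraries within a group, estimated jointly over the 4 dose groups of a day. Differences between cultures stay in that spread unless the replicate block is used.

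At day 7 after 4 Gy 1 of the 40 genes was called, where 1.63% of all genes were. Xrcc1 was at 16.2, 19.6 and 15.4 CPM after 0 Gy, 22.9, 22.2 and 26.3 CPM after 2 Gy, 28.9, 28.3 and 23.8 CPM after 4 Gy and 23.1, 24.4 and 18.1 CPM after 7 Gy. All 4 Gy libraries lay above all 0 Gy libraries, and the log2 fold change was 0.61 (SE 0.14, adjusted p = 0.0474). It was 0.45 ± 0.15 at 2 Gy and 0.35 ± 0.15 at 7 Gy, neither past the threshold. The call at 4 Gy was lost with DESeq2 (adjusted p = 0.0955) and in 5 of the 6 fits without 1 library (0.55 to 0.67), the exception being the fit without the 0 Gy library of mTG12, in which 2 genes were called, and it was kept with the replicate block (adjusted p = 0.0190, edgeR). At day 11 Xrcc1 was at 21.2, 16.7 and 17.1 CPM after 2 Gy, 17.6, 17.5 and 17.7 CPM after 4 Gy and 15.2, 17.1 and 17.8 CPM after 7 Gy, which overlapped the 0 Gy libraries at every dose. With the block Rad54b was also called at 4 Gy (log2 fold change -1.26 without the block, adjusted p = 0.0705, and 0.0461 with it, edgeR).

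**Figure D3:**
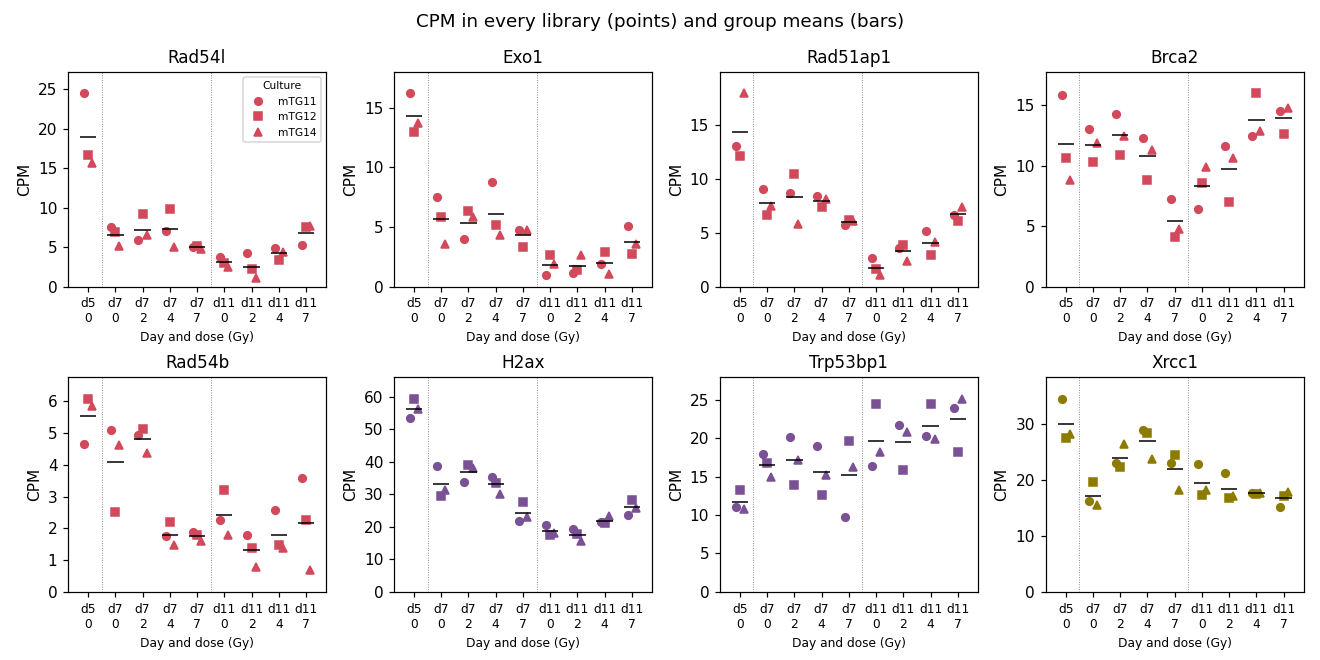
CPM (y axis, from 0) of 8 of the genes in every library by day and dose in Gy (x axis, 9 groups); points are libraries, marked by culture, and bars are group means. Rad51ap1 falls from 14.4 CPM at day 5 to 1.78 CPM at day 11 without irradiation and stands at 6.71 CPM at day 11 after 7 Gy, and Brca2 is lowest at day 7 after 7 Gy (5.39 CPM).

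At day 7 after 7 Gy 3 genes fell and 0 rose, 2 of them recombination genes, where 3.75% of all genes were called lower and 3.2% higher. Brca2 lies on chromosome 5 from 150446057 to 150496080. It was at 13.0, 10.3 and 11.8 CPM after 0 Gy, 14.2, 10.9 and 12.4 CPM after 2 Gy, 12.2, 8.78 and 11.3 CPM after 4 Gy and 7.27, 4.11 and 4.79 CPM after 7 Gy. Only the 7 Gy libraries stood apart from the 0 Gy libraries, and the log2 fold change was -1.12 (SE 0.24, adjusted p = 0.0106), a call kept by DESeq2 (adjusted p = 0.0107) and in all 6 fits without 1 library. At 2 and 4 Gy it was 0.05 ± 0.22 and -0.18 ± 0.21.

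Rad54b, on chromosome 4 from 11558862 to 11615814, was at 5.08, 2.52 and 4.63 CPM after 0 Gy, 4.94, 5.12 and 4.38 CPM after 2 Gy, 1.75, 2.20 and 1.47 CPM after 4 Gy and 1.88, 1.80 and 1.60 CPM after 7 Gy. The 4 and 7 Gy libraries lay below all others of day 7, and at 7 Gy the log2 fold change was -1.20 (SE 0.33, adjusted p = 0.0401). H2ax was at 38.9, 29.6 and 31.3 CPM after 0 Gy, 33.8, 38.9 and 38.2 CPM after 2 Gy, 35.4, 33.6 and 30.2 CPM after 4 Gy and 21.9, 27.6 and 23.0 CPM after 7 Gy. Its 7 Gy libraries were below the others of day 7, with a log2 fold change of -0.47 (SE 0.13, adjusted p = 0.0403). Neither of these calls was made by DESeq2 (adjusted p = 0.159 for Rad54b and 0.0910 for H2ax). That of Rad54b was lost without any 1 library except the 0 Gy library of mTG12 (-1.29 to -1.03), and that of H2ax without the 0 or 7 Gy library of mTG11 or mTG14 (-0.48 to -0.36). Without any 1 of these 4 libraries, of the 3 calls that of Brca2 alone was left. Rad51c, which acts in homologous recombination, fell short of the threshold at 4.52, 4.77 and 3.35 CPM after 0 Gy and 0.752, 2.57 and 1.09 CPM after 7 Gy (-1.51 (SE 0.43, adjusted p = 0.0515)) and passed it with the replicate block (adjusted p = 0.0377, edgeR).

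By role, the median log2 fold change at day 7 after 7 Gy was -0.37 for the recombination and Fanconi genes and 0.01 for all genes. It was -0.20 for the sensors and checkpoint genes and 0.04 for the end-joining genes. Below 0 were 15 of the 18 recombination and Fanconi genes, 9 of the 12 sensors and checkpoint genes and 4 of the 8 end-joining genes. Of all 19346 genes, 9518 were below 0. By edgeR and by DESeq2 0 of the 8 end-joining genes were called, with 1 at an unadjusted p under 0.05, and their values ran from -0.28 (Polq) to 0.52 (Xrcc4). Among all 19346 genes tested, 4112 had an unadjusted p under 0.05 (edgeR). In the same libraries 14 of 20 genes of G2 and mitosis fell (Mki67 -1.47), 3 of 21 genes of G1/S and replication fell (Mcm4 -0.51) and 14 of 18 p53 target genes rose (Cdkn1a 1.29, Ccng1 1.76, Plk2 1.26). Of the further repair genes 0 of 26 recombination and Fanconi genes and 0 of 23 sensors and checkpoint genes were called by edgeR (5 and 7 at an unadjusted p under 0.05, 0 and 1 by DESeq2), and of the 13 further end-joining and single-strand break genes Lig1 fell (-0.69) and Parp3 rose (1.28). Of the 8 basal and squamous markers 2 rose and 2 fell (summed 18949 to 20895 CPM after 0 Gy and 18480 to 24775 CPM after 7 Gy), and the fibroblast markers summed to 21.2 to 111 CPM after 0 Gy and 47.1 to 114 CPM after 7 Gy. Of the 4 C-cell and parathyroid markers with enough counts 1 rose, and the list summed to 18.8 to 40.6 CPM after 0 Gy and 77.2 to 89.9 CPM after 7 Gy without overlap. Nearly all of this was Calcb (a mean of 26.4 ± 10.6 CPM after 0 Gy and 83.7 ± 6.10 CPM after 7 Gy), while the C-cell hormone gene Calca was at most at 1.03 CPM and the parathyroid factor Gcm2 at 0. With the mean log2(CPM + 1) of the fibroblast markers as a covariate, the calls of H2ax and Rad54b were lost and that of Brca2 was kept. The part of the other markers was not tested.

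At day 11 after 7 Gy 1 of the 40 genes rose, Rad51ap1, and 0 fell, where 1.06% of all genes were called higher and 0.462% lower. Rad51ap1 was at 2.62, 1.61 and 1.10 CPM after 0 Gy, 3.58, 3.90 and 2.40 CPM after 2 Gy, 5.13, 2.92 and 4.14 CPM after 4 Gy and 6.64, 6.12 and 7.37 CPM after 7 Gy. Its 0 Gy values rested on 11, 6 and 4 counts. The 7 Gy libraries were above all others of day 11 but below the 12.2 to 18.0 CPM of day 5, and the log2 fold change was 1.84 (SE 0.33, adjusted p = 0.0142). The call held with DESeq2 (adjusted p = 0.00931) and was lost without the 0 Gy library of mTG12 (1.75) or of mTG14 (1.62). At 2 and 4 Gy the log2 fold change was 0.83 ± 0.37 and 1.13 ± 0.36, not past the threshold.

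Other genes lay above their controls at day 11 after 7 Gy without passing the test over all genes. Rad54l was at 5.26, 7.61 and 7.67 CPM after 7 Gy, above all 3 of its 0 Gy libraries (1.08 ± 0.35, adjusted p = 0.152). Brca2 was at 6.44, 8.58 and 9.90 CPM after 0 Gy, 11.6, 6.96 and 10.7 CPM after 2 Gy, 12.4, 16.0 and 12.8 CPM after 4 Gy and 14.5, 12.6 and 14.7 CPM after 7 Gy, with 0.71 ± 0.21 at 4 Gy and 0.71 ± 0.21 at 7 Gy (adjusted p = 0.411 and 0.118). H2ax was at 23.7, 28.4 and 25.9 CPM after 7 Gy, above its 0 Gy libraries (0.43 ± 0.13, adjusted p = 0.115). Exo1 was at 5.07, 2.70 and 3.55 CPM (1.01 ± 0.45, adjusted p = 0.316), the lowest barely above its highest 0 Gy library (2.69 CPM). Bard1, Fanca, Fanci and the end-joining gene Xrcc5 lay above all their 0 Gy libraries as well. Xrcc5 was at 46.7, 40.5 and 39.3 CPM after 7 Gy and 32.1, 37.8 and 28.6 CPM after 0 Gy. Rad54b, at 3.58, 2.25 and 0.683 CPM, overlapped its controls (-0.17 ± 0.51). The share of all genes without overlap was not counted.

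The median log2 fold change at day 11 after 7 Gy was 0.45 for the recombination and Fanconi genes, 0.13 for the sensors and checkpoint genes and 0.17 for the end-joining genes, against 0.01 for all genes. Among the further recombination and Fanconi genes the helicase Brip1 rose (2.05), and of the further checkpoint genes 1 of 23, Clspn (1.46), the mediator through which Atr activates Chek1. Lig1 also rose (0.65). In the same libraries 17 of 20 genes of G2 and mitosis (Mki67 1.58) and 9 of 21 genes of G1/S and replication (Mcm3 0.93) rose, and 1 of 18 p53 targets did (Pmaip1 0.49). Of the basal and squamous markers 1 of 8 rose (summed 8105 to 9967 CPM after 0 Gy and 9000 to 14041 CPM after 7 Gy), and the fibroblast markers summed to 5.95 to 38.3 CPM after 0 Gy and 16.6 to 77.9 CPM after 7 Gy. The C-cell and parathyroid markers summed to 2.20 to 5.00 CPM after 0 Gy and 8.47 to 14.5 CPM after 7 Gy without overlap, and the 1 with enough counts, Calcb, rose. The call of Rad51ap1 was kept with the fibroblast covariate, and the part of the other markers was not tested.

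**Figure D4:**
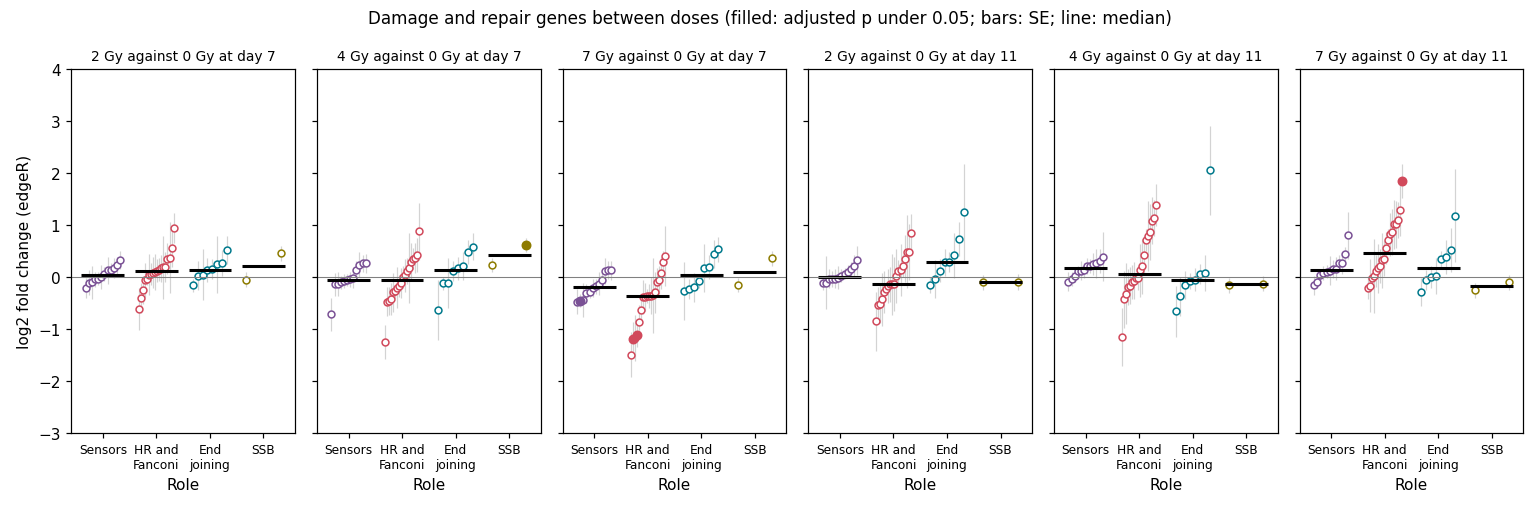
log2 fold change (y axis) of each of the 40 genes by role (x axis) for 2, 4 and 7 Gy against 0 Gy at days 7 and 11; bars are standard errors, filled points passed an adjusted p of 0.05 and lines are medians. The recombination and Fanconi genes have a median of -0.37 at day 7 and 0.45 at day 11 after 7 Gy.

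Whether the response to 7 Gy differed between the days was tested as an interaction in 1 fit of the 24 libraries of days 7 and 11. It was more positive at day 11 in 3 genes and less in 0, where 2.22% of all genes were called in the first direction and 0.807% in the second. The 3 were Rad51ap1, with a difference between the log2 fold changes of 2.23 (SE 0.39, adjusted p = 0.00121), Brca2 with 1.86 (SE 0.32, adjusted p = 0.000949) and H2ax with 0.93 (SE 0.17, adjusted p = 0.00243). All 3 were called by DESeq2 (adjusted p = 0.00177, 0.000240 and 0.00390) and in all 12 fits without 1 library. For all 3 the 2 responses had opposite signs, and for Rad51ap1 most of the difference came from day 11. The mean of Rad51ap1 after 7 Gy was 6.02 ± 0.22 CPM at day 7 and 6.71 ± 0.63 CPM at day 11. After 0 Gy it was 7.74 ± 1.27 CPM at day 7 and 1.78 ± 0.77 CPM at day 11. The largest differences that did not pass were those of Fancd2 (2.08 (SE 0.62, adjusted p = 0.0718)), Fanca (1.71 (SE 0.52, adjusted p = 0.0818)), Rad51c (1.64 (SE 0.52, adjusted p = 0.100)) and Rad54l (1.50 (SE 0.44, adjusted p = 0.0692)). With the replicate block Fancd2 (adjusted p = 0.0237, edgeR) and Rad54l (adjusted p = 0.0357, edgeR) passed, and without the 7 Gy library of mTG12 at day 7 Fancd2 (2.53, adjusted p = 0.0467, edgeR) and Rad51c (2.27, adjusted p = 0.0314, edgeR) passed, which gave 5 calls. Fancd2 also passed without the 0 Gy library of mTG12 at day 11 (2.72, adjusted p = 0.0230, edgeR). These values rested on few counts. Fancd2 had 2, 8 and 5 counts at day 7 after 7 Gy and 3, 8 and 3 at day 11 after 0 Gy. Rad51c had 3, 10 and 4.11 counts at day 7 after 7 Gy.

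The median difference was 1.11 for the recombination and Fanconi genes and 0.02 for all genes. It was 0.31 for the sensors and checkpoint genes and 0.32 for the end-joining genes. Below 0 were 2 of the 18 recombination and Fanconi genes, 1 of the 12 sensors and checkpoint genes and 3 of the 8 end-joining genes. Of all 21928 genes, 10659 were below 0. Of the 8 end-joining genes 0 were called by edgeR or DESeq2, with 2 at an unadjusted p under 0.05, and Xrcc4 had the most negative value (-0.79 ± 0.35). Xrcc1 was also below 0 (-0.58 ± 0.20). Among all 21928 genes tested, 3091 had an unadjusted p under 0.05 (edgeR). Among the other lists all 20 genes of G2 and mitosis and 14 of 21 genes of G1/S and replication were more positive at day 11, and 12 of 18 p53 targets were less positive. The further recombination and Fanconi genes called as more positive included Usp1 (0.93) and Brip1 (2.92). Since repair and cell-cycle genes moved in the same direction in the same libraries, the part of the cell cycle in these differences was not tested.

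**Figure D5:**
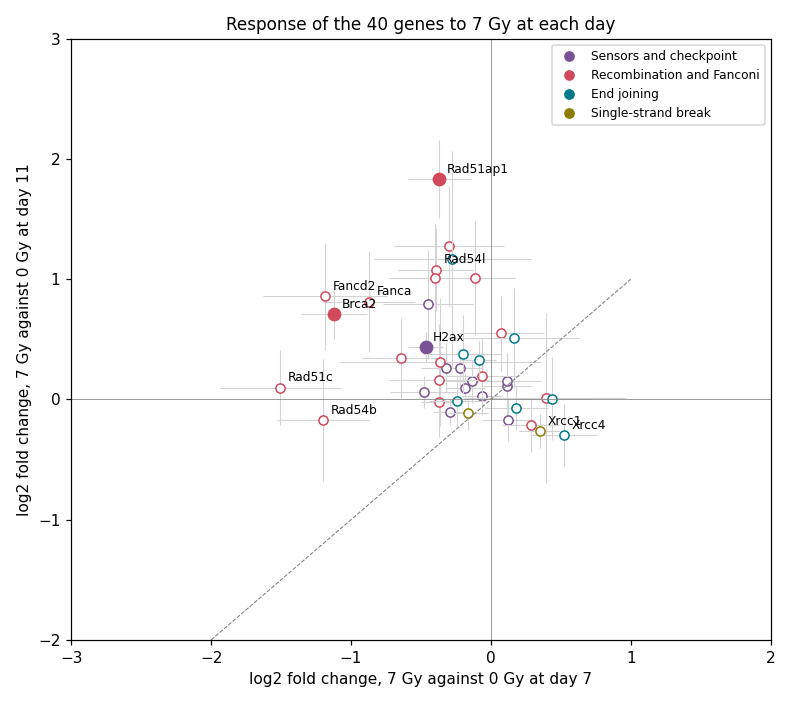
log2 fold change after 7 Gy at day 7 (x axis) and at day 11 (y axis) for each of the 40 genes, coloured by role, with standard errors; the dashed line marks equal responses and filled points passed the interaction test. Rad51ap1 (-0.37 and 1.84), Brca2 (-1.12 and 0.71) and H2ax (-0.47 and 0.43) are filled and lie above the line.

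Over the 9 groups the mean Z-score of each role, computed per library from log2(CPM + 1) without TMM factors, is given as a description without a test. Without these factors the median log2 fold change of all genes against day 5 was lower by 0.143 at both later days. Differences of these Z-scores from day 5 include that shift. For the recombination and Fanconi genes it was 1.23 ± 0.13 (SD, n = 3 libraries) at day 5, 0.35 ± 0.24 at day 7 and -0.76 ± 0.03 at day 11 without irradiation. After 2, 4 and 7 Gy it was 0.52 ± 0.04, 0.37 ± 0.12 and -0.35 ± 0.32 at day 7 and -0.81 ± 0.16, -0.47 ± 0.13 and -0.07 ± 0.15 at day 11. The 7 Gy group was thus the lowest of the 4 doses at day 7 and the highest at day 11. For the end-joining genes it was 0.42 ± 0.22 at day 5, and after 0 and 7 Gy it was -0.20 ± 0.14 and 0.04 ± 0.18 at day 7 and -0.40 ± 0.29 and -0.09 ± 0.49 at day 11, and the libraries of 0 and 7 Gy overlapped on both days. After 2 and 4 Gy it was 0.22 ± 0.16 and 0.24 ± 0.31 at day 7 and 0.23 ± 0.09 and -0.46 ± 0.69 at day 11. The 2 Gy libraries lay above all 0 Gy libraries on both days, and those of 4 Gy overlapped them. The sensors and checkpoint genes were at 1.13 ± 0.30 at day 5 and, after 0 and 7 Gy, at -0.19 ± 0.38 and -0.72 ± 0.45 at day 7 and -0.33 ± 0.44 and 0.13 ± 0.32 at day 11.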

How the data were processed

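Bulk RNA was measured in 27 libraries of mouse thyroid gland organoids. The authors prepared Smart3SEQ libraries, sequenced single reads and aligned them to GRCm39 (STAR and edgeR are named in the submitters' processing notes), and the deposited values are estimated counts for each gene symbol with no normalization. The counting tool, strand setting and treatment of molecular identifiers are not given in the sources used here, so the floor of 3 counts covers counting error only. CPM was computed with the totals of the deposited counts. Columns were placed in groups by day and dose, since it was not clear which culture identifier belongs to which numbered mouse. The chi-square between replicates was at least 3.39 per degree of freedom over 27 pairs, which is more than counting error alone. With the treatment of molecular identifiers unknown, this value cannot show that the libraries are independent. Each library was counted as its own replicate of its group, following the labels, which number the mice in each group.

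Counts were rounded (the design had assumed whole counts) and tested with edgeR 4.0.16 in R 4.3.3, using TMM, genes with 10 or more counts in the fitted libraries, quasi-likelihood tests and an adjusted p (Benjamini-Hochberg, over all genes) under 0.05. Days were compared in 1 fit of the 9 unirradiated libraries, doses in 1 fit of 12 libraries for each day. Alternatives were DESeq2 1.42.0, no TMM factors, other filters, a replicate block on culture, only the compared groups, each library left out and, chosen after seeing the data, a fibroblast covariate. The scripts were tested on simulated data. Deviations from the group means correlated between libraries that share a culture (r from 0.122 to 0.416 over 13155 genes, against -0.291 to 0.0474 for other cultures). The deviations within a group sum to 0, so the second range is partly set by the first. That the culture identifiers pair the libraries therefore rests on the first range. Coordinates are GENCODE on GRCm39, and promoters RefSeq on GRCm38.p6.

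The genes and lists were chosen with earlier results of these data known. Every gene past the threshold is named, with values in every library for those called in at least 3 of the 10 comparisons, after 7 Gy or in the interaction (Trp53bp1, Atm and Rad51c were added after their values were seen). Of other lists at most 3 called genes of highest CPM are named, and some genes of these lists are not reported here.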

Additional observations from a re-analysis of the deposited data

Results flagged for a closer look

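In 3 of the 40 genes the change after 7 Gy was not the same at the 2 days by the interaction test of edgeR with Benjamini-Hochberg adjustment over all genes. The difference in log2 fold change was 2.23 for Rad51ap1 (-0.37 at day 7, 1.84 at day 11), 1.86 for Brca2 (-1.12 and 0.71) and 0.932 for H2ax (-0.47 and 0.43). In each gene the 3 libraries after 7 Gy lay below the 3 controls at day 7 and above them at day 11. At day 11 the response of Brca2 and H2ax alone did not pass the threshold. All 20 G2 and mitosis genes differed in the same direction, and the part of the cell cycle was not tested.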

How the results depend on the processing

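No call between days or doses changed direction under any alternative. Of the 47 calls of single genes, 15 were lost with DESeq2, 11 with the fibroblast covariate, 3 without TMM factors, 3 with only the compared groups and none with the other filters or the replicate block. With the fibroblast covariate 5 of the 11 were between days 5 and 11 (16 genes called in place of 21) and 3 between days 7 and 11 (9 in place of 10). For day 11 against day 7 the count of 10 was 6 with DESeq2. For 4 Gy at day 7 the count of 1 was 0 with DESeq2, with only the compared groups and with the fibroblast covariate, and 2 without a filter or with the replicate block. For 7 Gy at day 7 the count of 3 was 1 with DESeq2, with only the compared groups and with the fibroblast covariate. For 7 Gy at day 11 the count of 1 was 3 without a filter. For the interaction the count of 3 was 5 with the replicate block. The cause was not tested. Leaving out each library in turn gave 4 to 8 genes between days 5 and 7, 16 to 19 between days 5 and 11, 7 to 10 between days 7 and 11, 0 to 2 for 4 Gy at day 7, 1 to 3 for 7 Gy at day 7, 0 to 1 for 7 Gy at day 11 and 3 to 5 for the interaction. The replicate block changed no call other than those given. Genes with few counts, such as Polq and Palb2, were measured with the least precision, and strand was not resolved for genes with an opposite neighbour.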
